A study of Mus musculus with 16 samples.

Results

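The proteins of the cytosolic ribosome were followed at the RNA level through 81 genes. They are the rows of the gene count table whose symbol is Rpl or Rps followed by the protein's number, or by a, p0, p1 or p2, and which held at least 100 counts summed over all 16 libraries. Such a symbol was carried by 83 of the 57186 genes listed, and Rpl10l and Rpl39l, known from the testis, were left out because both had a total of 0 counts. The small subunit gave 32 members and the large subunit 49. Fau and Rack1, which also supply ribosomal proteins, have other names and are described separately. RNA came from whole kidneys of 16 male Elmo1H/H mice, a line on a C57BL/6J background in which Elmo1, a gene of Rac activation, is expressed above its normal level in every animal, the controls included. Non-diabetic mice were Elmo1H/HIns2+/+. Diabetic mice were Elmo1H/HIns2A/+, carrying the Akita allele of Ins2, whose misfolded proinsulin kills beta cells from early life, so this is insulin deficiency and not insulin resistance. Each genotype was kept without B12 (ND_C, D_C) or with vitamin B12 (10 mg/kg each day, given in the drinking water) from 8 weeks of age (ND_B12, D_B12), with 4 mice in each of the 4 groups. The labels give 16 weeks of treatment, while the study's methods place kidney collection at 16 weeks of age.

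Some facts about the libraries bear on every comparison. The labels and the group means published for these kidneys disagree for 11 of the 16 libraries. Over 181 genes, each published mean was met almost exactly by 1 of the 1820 possible sets of 4 libraries, and these sets put 5 libraries under their own label. The D_B12 libraries together met the mean published for D_C, and 3 of the D_C libraries with ND_B12 replicate 4 met the mean published for D_B12. Groups and directions below are those of the labels, and a direction or size in any comparison holds only if the labels do. That covers diabetes in B12-treated kidneys as much as D_C against D_B12, since D_B12 and ND_B12 replicate 4 met means published for other groups. The dates in the library names also followed the groups. D_B12 was dated between 63 and 111 days after the first library and ND_C within 14 days of it, so date and group cannot be told apart for most comparisons.

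A ribosome is built from ribosomal RNA and a matched set of ribosomal proteins, so cells make these proteins in balanced amounts. Vertebrate mRNAs for ribosomal proteins and many translation factors begin with a C followed by a run of pyrimidines, the 5-prime terminal oligopyrimidine (TOP) motif. Through it mTORC1 controls their translation by way of LARP1, which binds these mRNAs and protects them when growth signals are low. Surplus Rpl5 and Rpl11 bind Mdm2 and stabilize p53, which ties ribosome assembly to the cell cycle. In the kidney, protein synthesis and ribosome production are known to increase when the organ grows in early diabetes. Changes in mRNA translation would not be seen in these counts.

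The start of the transcript is shown here because it carries the TOP motif and is a feature that the symbol did not select. In these windows a minority of members had the motif at the annotated base. Windows around annotated starts were found in RefSeq (GRCm38.p6 table) for 59 of the 81 members, and each of their 71 windows matched GRCm39 at exactly 1 place, which gives the coordinates below. Each sequence runs from 30 bases before the annotated start to the 20th transcribed base. Capitals mark the unbroken run of C and T over the start base, where it has at least 5 bases.
Rps6 (chr4:86775585-86775634, minus strand): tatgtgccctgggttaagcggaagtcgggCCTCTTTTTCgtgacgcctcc
Rpl35 (chr2:38895124-38895173, minus strand): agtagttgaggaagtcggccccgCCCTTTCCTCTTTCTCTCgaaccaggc
Rplp2 (chr7:141027534-141027583, plus strand): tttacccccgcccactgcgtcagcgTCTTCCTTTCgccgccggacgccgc
Rpl35a (chr16:32876822-32876871, plus strand): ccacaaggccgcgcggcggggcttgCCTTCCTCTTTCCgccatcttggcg
Rps27 (chr3:90120936-90120985, minus strand): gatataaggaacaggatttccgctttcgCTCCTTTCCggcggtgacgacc
Rps9 (chr7:3707010-3707059, plus strand): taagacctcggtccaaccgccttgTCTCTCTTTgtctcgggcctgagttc
Rpl5 (chr5:108048364-108048413, plus strand): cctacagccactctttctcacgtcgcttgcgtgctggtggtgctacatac
Rpl22 (chr4:152410153-152410202, plus strand): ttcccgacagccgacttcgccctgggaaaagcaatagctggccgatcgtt
The first 5 show the TOP type of start. In Rps9, the only member called in a comparison below, the capitals run over the start although the annotated first base is not C with 4 further pyrimidines. Rpl5 and Rpl22, shown for contrast since both leaned lower with Rps9, have no such run over the annotated base, and in Rpl5 a stretch of C and T lies upstream of it. A C at the annotated start with at least 4 further C or T was present in 14 of 59 members (23.7%) against 417 of 13633 other tested genes with a window (3.06%). The 14 include Rpl32l, which the annotation classes as a processed pseudogene. A run of at least 8 C or T between 10 bases before and 20 bases after the start was found in 24 members (40.7%) and in 14.0% of the other genes. In the 300 bases of the RefSeq window, read on both strands, CGGAAG occurred in 40 members (67.8%) and in 28.9% of the others. CTCTTTCC, which is itself a pyrimidine run and can overlap one counted above, occurred in 16.9% and 3.73%. TATAAA was about as frequent in both sets, at 11.9% and 10.2%. The annotated base is not a measured start, so a TOP start a few bases away is missed by the first count.

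Members with and without a TOP type of start had medians close to each other. The 14 members with it, the pseudogene Rpl32l included, had a median log2 fold change of -0.09 for diabetes in B12-treated kidneys. It was -0.07 for diabetes in untreated kidneys. The 45 members with another start had medians of -0.06 and -0.05. Members that host small nucleolar RNAs, which guide rRNA modification and are cut from their introns, numbered 29. Their medians were -0.07 and -0.04, beside -0.09 and -0.06 in the 52 that host none. These are descriptions without a test.

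The members together took a near constant share of the kidney's counts. Counts summed over members gave 0.801% ± 0.0328 of a library in ND_C and 0.814% ± 0.0341 in ND_B12, and 0.802% ± 0.0398 in D_C beside 0.795% ± 0.0214 in D_B12 (SD over 4 mice). The lowest library was D_C replicate 3 at 0.750% and the highest ND_B12 replicate 2 at 0.842%, and the ranges of the 4 groups overlapped. The share of mitochondrially encoded genes stood apart in 2 places, at 8.35% in D_C replicate 3 and between 12.4% and 13.1% in D_B12, against 10.6% to 11.9% elsewhere. Without those genes and the genes below 100 counts the members' share was 0.905% ± 0.0377, 0.916% ± 0.0378, 0.900% ± 0.0582 and 0.912% ± 0.0217 in the same order, so the small deficit in D_B12 was not seen on that scale.

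**Figure D1:**
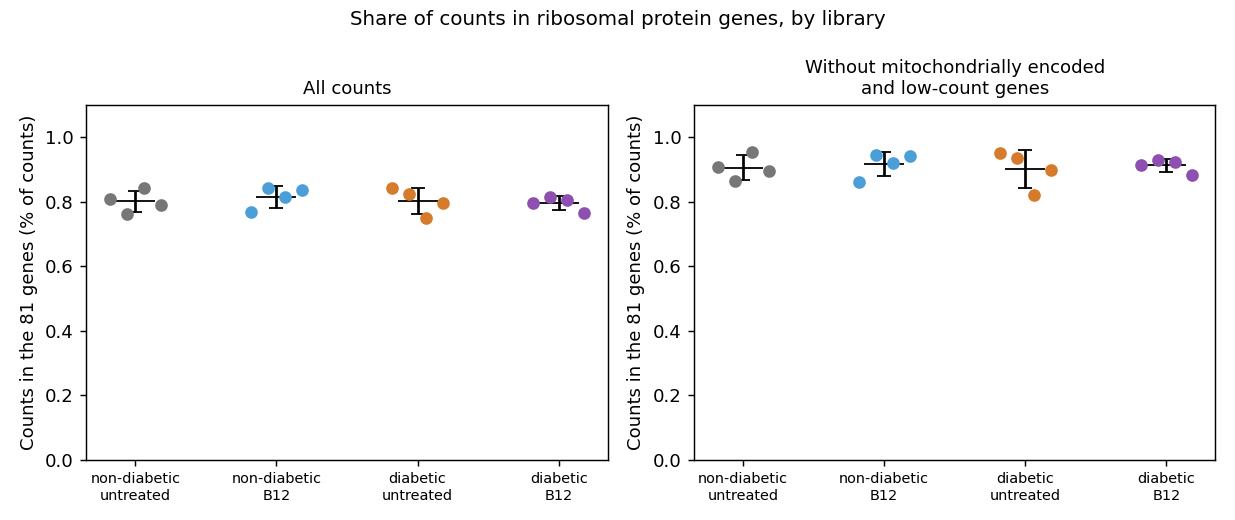
Percent of counts in the 81 genes for each library (points), with the group mean and SD (bars, n = 4), over all counts (left) and without mitochondrially encoded genes and genes under 100 counts (right). All 16 libraries lie between 0.750% and 0.842% on the left and between 0.819% and 0.955% on the right, with overlapping groups.

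Levels of single members spanned a wide range. Mean CPM (counts scaled to a common library total) ran from 1.20 for Rpl3l to 332 for Rpl4, and after Rpl4 the most counted were Rps2 at 310 and Rplp0 at 306. Because a long transcript collects more counts, levels were compared per kilobase only in the 28 members whose most counted transcript has the same version in the annotation used here. The highest were Rpl41, which encodes the smallest ribosomal protein, at 273 CPM per kb, Rpl13a at 246, Rps29 at 167, Rpl7 at 166 and Rpl7a at 165. The lowest were Rps4l at 5.41, Rpl32l at 6.92, Rpl6l at 17.0, Rps24 at 19.3 and Rpl21 at 36.8 CPM per kb. The most counted Rps24 transcript is 4059 bases long. Rpl6l and Rpl32l are members by symbol but are classed as processed pseudogenes in the annotation, without introns.

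The members varied little between mice, and mostly together. After removing group means the SD of log2 CPM was 0.0954 for the median member, 0.248 for the median of all 25408 tested genes and 0.103 for 2895 genes of the members' level (log2 CPM between 5.55 and 7.37). Well-counted genes in general were thus about as steady. Rpl5 had the smallest SD at 0.0555 and Rpl3l the largest at 0.374. Pairs of members had a median correlation of 0.48 over the 16 libraries, against 0.38 for 79 mitochondrial ribosomal protein genes and 0.05 for 29 ribosome assembly factors. The points share libraries, depth and scaling, and levels differ between these sets (median log2 CPM 6.41, 4.68 and 4.19). With the mean of the other members, 79 of 81 correlated above 0 and 63 above 0.5. Rps15 and Rpl27 followed it most closely, at 0.92 each. Rpl3l at -0.37 and Rps27a at -0.05, whose protein is made as a fusion with ubiquitin, did not follow it.

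**Figure D2:**
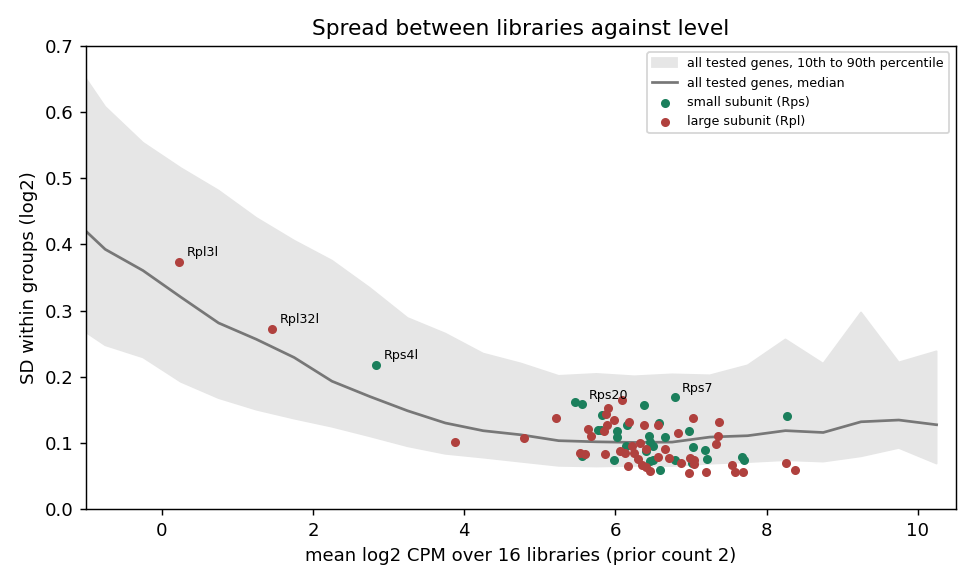
SD of log2 CPM within groups against mean log2 CPM (prior count 2) for each member (points), beside the median (line) and 10th to 90th percentile (grey) of all tested genes in bins of level. Most members sit in the band at high level. Rpl3l, Rpl32l and Rps4l, to the left, have the 3 largest SDs of the members, and all genes spread more at low level. The axes are limited to log2 CPM above -1 and SD up to 0.7.

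Library totals were 65271308 to 91771136 counts. Replicates are separate mice by their labels. All markers of proximal tubule, loop of Henle, distal nephron and podocytes passed the count filter, as a kidney should show. The 4 skeletal muscle markers Acta1, Ckm, Myh4 and Tnnt3, and 3 of the 4 adrenal cortex markers, had under 100 counts in all libraries together. B and plasma cell markers summed to 14.5 to 120 CPM in non-diabetic and 6.93 to 17.8 CPM in diabetic kidneys, and to 6.95 to 10.1 in D_B12 alone, below every ND_B12 library. Every D_C library was also below every ND_C library for these markers. Proximal tubule markers, of the kidney's main cell type, summed to 11692 to 12125 CPM in D_B12, below every ND_B12 library at 12877 to 14347, with a median log2 fold change of -0.21 over 6 genes, of which 0 were called. The loop of Henle sum was 2091 to 2466 CPM in D_B12, below D_C at 2801 to 3799. Macrophage markers, 53.3 to 89.6 CPM over all libraries, were lower in every D_C library than in ND_C and lower in D_B12 than in D_C. Erythroid markers, 238 to 415 CPM, were lower in every D_C library than in ND_C. T cell markers lay between 1.75 and 5.36 CPM and adipocyte markers between 27.4 and 254. Their part in the differences below was not tested, and fewer cells of a type and less RNA per cell cannot be told apart in whole kidneys.

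Diabetes in B12-treated kidneys gave the only call among the members. Rps9, a small-subunit protein that binds the 18S rRNA early in assembly, fell in D_B12 relative to ND_B12. Its normalized counts (scaled by DESeq2's size factors) were 12582, 13369, 12689 and 12179 in ND_B12 and 9997, 11018, 10914 and 10177 in D_B12. Every D_B12 library was below every ND_B12 library, while ND_C (12397 ± 719) and D_C (11813 ± 674) lay nearer to ND_B12 (12705 ± 494) than to D_B12 (10527 ± 514; SD, n = 4). The fitted change was small (log2 fold change -0.27, SE 0.059, adjusted p = 0.0435, edgeR quasi-likelihood with Benjamini-Hochberg adjustment over all genes). That made 1 of 81 members, and 0.823% of all tested genes (209) were called. That count of genes was 0 without D_B12 replicate 1, 2 or 3 or without ND_B12 replicate 2, and 438 without D_C replicate 2. The Rps9 call did not survive most alternatives. It was lost with the label date as a covariate (adjusted p = 0.447), with upper-quartile scaling (0.0854), with the replicate block (0.0626), without the count filter (0.062), with the compared groups alone (0.0557), and on leaving out any 1 library except D_C replicates 1 and 2 and ND_B12 replicate 4. DESeq2 gave 0.00131. The log2 fold change itself stayed between -0.30 and -0.22 under all alternatives, being -0.22 with label date in the fit and -0.24 with upper-quartile scaling.

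Most other members leaned the same way by little. The log2 fold change was below 0 in 71 of 81 members, beside 49.5% of all genes, with a median of -0.08 and a range from -0.29 to 0.15. An unadjusted p below 0.05 was reached by 13 members (16.0%), beside 17.0% of all genes, so in the main fit no more often than elsewhere. All 13 were lower, beside 9.20% of all genes that were lower at that p. Counts of the 2 groups did not overlap for 18 of 81 members, all lower, where 11.7% of all genes did not overlap. Of the 25408 genes 1670 were lower without overlap and 1297 higher. The small and large subunits had medians of -0.09 and -0.08. With the label date as a covariate the members' median became 0.00, with 40 of 81 below 0 and 1 member at an unadjusted p below 0.05. With upper-quartile scaling it was -0.05, while the median of all genes moved to 0.03. The count of 13 fell to 8 without D_B12 replicate 1 or without ND_B12 replicate 2, beside 3486 and 3331 of 25408 genes. It rose to 19 without ND_B12 replicate 1, beside 4113 genes, and to 22 with the compared groups alone, beside 4666 genes. Whether members reached that p more often than other genes thus depended on the fit. The main fit had 4317 genes beside its count of 13.

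Among the members behind that count, Rpl22, a large-subunit protein that is not required for translation in general and has a paralog in Rpl22l1, had 5851, 6157, 6116 and 5554 normalized counts in ND_B12 and 4969, 5482, 4845 and 4882 in D_B12 (log2 fold change -0.23, SE 0.0636, adjusted p = 0.0851). Rpl7 had 15675, 16179, 15925 and 15288 in ND_B12 and 13577, 14166, 14010 and 13396 in D_B12 (log2 fold change -0.20, SE 0.0549, adjusted p = 0.0901). In both genes the 2 groups did not overlap, and neither passed the test. Rps4x, an X-linked small-subunit gene, had 10185, 10862, 10846 and 11228 against 9202, 9908, 9741 and 9297 (log2 fold change -0.18, SE 0.056, adjusted p = 0.117). Rpl5, of the 5S particle, had 10540, 10804, 10741 and 10428 against 9450, 9963, 9602 and 9158 (log2 fold change -0.16, SE 0.0497, adjusted p = 0.12). The groups did not overlap in any of these 4 genes. Rpl10, which is added late to the large subunit, Rpl3, which lies near the peptidyl transferase centre, and Rps3, at the mRNA entry channel, had log2 fold changes of -0.17, -0.18 and -0.16, with adjusted p = 0.133, 0.14 and 0.175 by edgeR. DESeq2 called 5 members here (6.17%), Rpl5, Rpl7, Rpl22, Rps4x and Rps9, beside 4.68% of all genes.

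**Figure D3:**
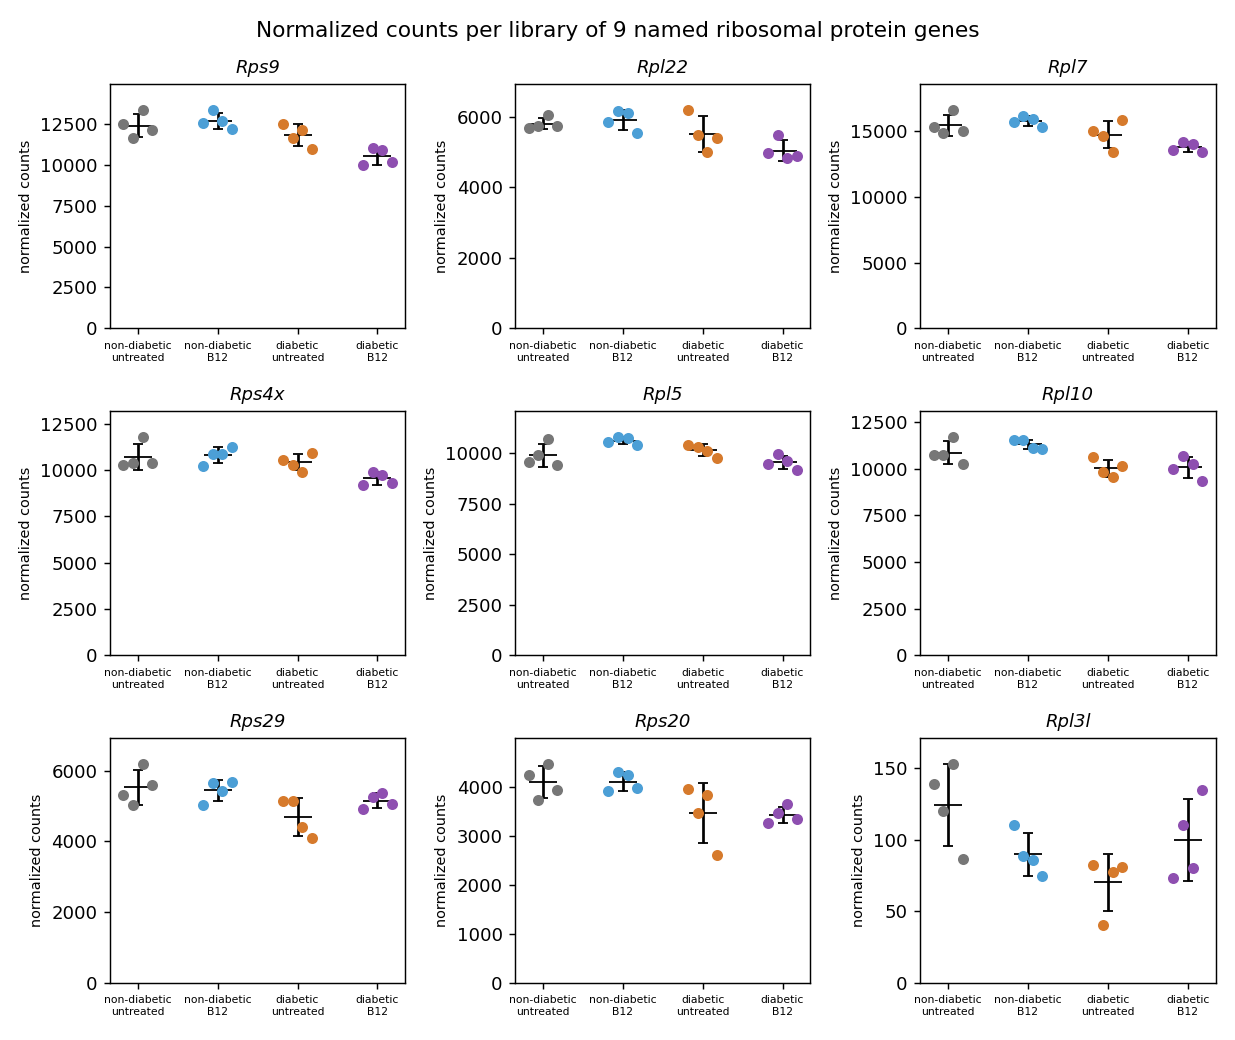
Normalized counts of 9 members in each library (points) with group mean and SD (bars, n = 4), each panel starting at 0. In Rps9 the D_B12 libraries, from 9997 to 11018, lie below every ND_B12 library, from 12179 to 13369, while Rpl3l stays at or under 153 counts in every library.

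In untreated kidneys diabetes gave no called member. Here 423 genes, 1.66% of those tested, were called by edgeR, and 0 members, with 5 members at an unadjusted p below 0.05 (6.17%) beside 18.6% of all genes. All 5 were lower, and 9.28% of all genes were lower at that p. DESeq2 called only Rpl3l (1.23% of members), beside 6.44% of all genes. The log2 fold change was below 0 in 60 of 81, beside 50.7% of all genes, with a median of -0.05. The median was -0.02 without ND_C replicate 3 (47 below 0), -0.02 without D_C replicate 3 (53 below 0) and -0.07 without D_C replicate 2 (64 below 0). The members at that p were Rpl3l, described below, and Rps29, Rps20, Rpl35a and Rpl23. Rps29, a small-subunit protein mutated in some Diamond-Blackfan anaemia, had 5314, 5028, 6182 and 5593 normalized counts in ND_C and 5134, 5143, 4393 and 4085 in D_C (log2 fold change -0.24, SE 0.0804, adjusted p = 0.125). D_C replicates 3 and 4 were low and replicates 1 and 2 were within the range of ND_C. Rps20 had 4242, 3730, 4460 and 3943 against 3957, 3463, 3831 and 2601, where replicate 4 stood lowest (adjusted p = 0.215 by edgeR). Rpl35a, another gene of Diamond-Blackfan anaemia, had 5670, 5526, 6471 and 5791 against 5377, 6089, 3937 and 4408 (adjusted p = 0.232). Rpl23, which like Rpl5 and Rpl11 can bind Mdm2, had 7774, 7658, 8630 and 7557 against 7603, 7973, 6453 and 5747 (adjusted p = 0.255). The lowest D_C value of all 4 genes came from replicate 3 or 4. D_C replicates 3 and 4 were both dated 58 days after the first library, and D_C replicates 1 and 2 at 21 and 28 days. A difference by date within D_C was not tested. Groups did not overlap for 1 member, Rpl3l, against 9.44% of all genes. The count of 5, beside 4725 of 25408 genes, depended on single libraries. It was 14 without D_C replicate 1, beside 5896 genes, and 19 without D_C replicate 2, beside 4295 genes. It was 3 without D_C replicate 3 (4085 genes), 3 without ND_C replicate 1 (4072) and 2 without ND_C replicate 3 (3893). With upper-quartile scaling it was 9, beside 4884 genes, and with the label date as a covariate 1, beside 2660 genes. Rps29 passed the test only without D_C replicate 1 (adjusted p = 0.0445).

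B12 in diabetic kidneys called 0 of 81 members by edgeR, by DESeq2 and under every alternative computed, and by edgeR 0% of all genes at the adjusted threshold, where DESeq2 called 670 genes (2.64%). At an unadjusted p below 0.05 there were 4 members (4.94%), beside 13.6% of all genes. The median log2 fold change was 0.01, with 38 of 81 below 0 beside 50.1% of all genes. Rps14, a small-subunit protein whose loss underlies the 5q- syndrome, was the 1 member without overlap between the groups, where 6.58% of all genes had none. Its normalized counts were 11404, 12242, 11940 and 13054 in D_C and 9970, 11264, 11111 and 10532 in D_B12 (log2 fold change -0.18, SE 0.0659, adjusted p = 0.242). Rps9 had 12499, 11638, 12161 and 10953 against 9997, 11018, 10914 and 10177 (log2 fold change -0.16, SE 0.059, adjusted p = 0.231), with D_C replicate 4 inside the range of D_B12. Rps4x was lower with a log2 fold change of -0.13 (adjusted p = 0.338) and Rpl29, a basic protein on the ribosome surface, was higher with 0.14 (adjusted p = 0.341), neither passing. Rpl29 had 4160, 4941, 4008 and 4634 in D_C and 4753, 5030, 4851 and 4867 in D_B12, and D_C replicate 2 was above 3 of the D_B12 values. The count of 4 stood beside 3468 of 25408 genes. It was 17 without D_C replicate 2 (3962 genes), 7 without D_C replicate 3 (2975) and 2 without D_B12 replicate 4 (2874). With the label date as a covariate it was 7, beside 3915 genes, and the members' median became 0.07.

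B12 in non-diabetic kidneys called 0 members and 0% of genes by edgeR, and 0 members and 6 genes (0.0236%) by DESeq2. Only Rpl5 had an unadjusted p below 0.05, beside 7.62% of all genes. It had 9570, 9909, 10703 and 9400 normalized counts in ND_C and 10540, 10804, 10741 and 10428 in ND_B12, overlapping at ND_C replicate 3 (log2 fold change 0.11, SE 0.0497, adjusted p = 0.646). No member was without overlap, where 4.81% of all genes were. The members leaned slightly the other way from the diabetes comparisons, with 6 of 81 below 0 beside 49.5% of all genes and a median of 0.04. Leaving out 1 library moved that median from 0.02 (22 below 0, without ND_C replicate 2) to 0.08 (2 below 0, without ND_C replicate 3). With upper-quartile scaling the members' median was 0.01 and 26 were below 0, while the median of all genes moved to -0.03. The members' median minus that of all genes was 0.0382 there and 0.0379 in the main fit. Over the 5 libraries whose label and published mean agree, 3 of ND_C and 2 of ND_B12, 0 members and 8 genes were called. There 4 members had an unadjusted p below 0.05, beside 1922 of 25408 genes, and the members' median was 0.09. This comparison shares ND_C with diabetes in untreated kidneys and ND_B12 with diabetes in B12-treated kidneys, so the opposite leanings are not separate evidence.

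**Figure D4:**
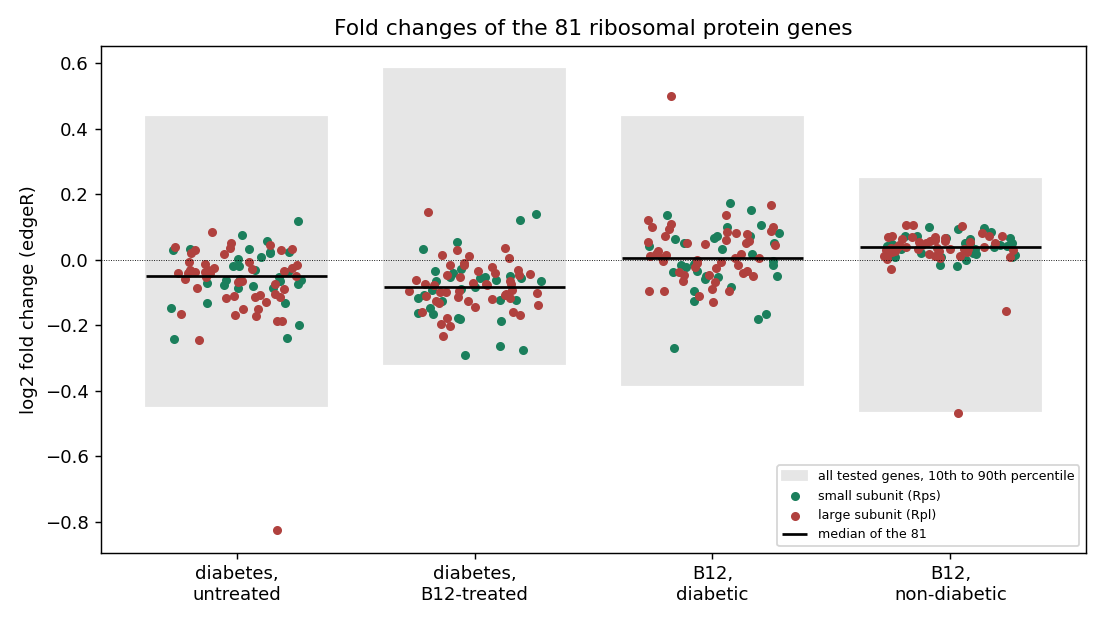
Log2 fold change (edgeR) of each member in the 4 comparisons, by subunit, with the members' median (black line) and the 10th to 90th percentile of all tested genes (grey). The medians are -0.05, -0.08, 0.01 and 0.04 from left to right, most members lie inside the spread of all genes, and the point farthest from 0 is Rpl3l at -0.82.

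The difference between the diabetes effects with and without B12, tested as the interaction, passed for 0 members and 0% of genes by edgeR and for 0 members and 943 genes (3.71%) by DESeq2. Unadjusted p was below 0.05 for 3 members, beside 16.1% of all genes. They were Rpl5 with a log2 difference of -0.20 (adjusted p = 0.185 by edgeR), Rpl3l with 0.97 (0.192) and Rps9 with -0.20 (0.238). The call of Rps9 in B12-treated and not in untreated kidneys is therefore not shown to be a difference between them.

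The narrow spread lets the size of any difference between the labelled groups be bounded. The 95% interval of the log2 fold change lay wholly within -0.5 to 0.5 for 79 of 81 members in each of the 4 comparisons, beside 43.4% of all genes for diabetes in untreated kidneys, 44.6% for diabetes in B12-treated kidneys, 45.0% for B12 in diabetic and 48.1% for B12 in non-diabetic kidneys. For the 77 members other than Rpl3l, Rpl6l, Rpl32l and Rps4l it did so in all 4. Interval limits cover the spread between mice at the main scaling, and not the doubt over labels and dates. They bound differences between groups as labelled. They bound an effect of diabetes or B12 only if the labels hold and date played no part. The members are well counted, and the share for all genes includes genes of low level.

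The genes commonly used as reference or as reporters of ribosome function stayed within these limits. Rplp0, of the stalk that recruits elongation factors and often a reference gene, averaged 24496 ± 1268 and 24907 ± 834 normalized counts in ND_C and ND_B12, and 23824 ± 1510 and 24574 ± 863 in D_C and D_B12. Its largest difference was a log2 fold change of 0.05 for B12 in diabetic kidneys, with a 95% interval of -0.08 to 0.17. Rpl13a, also a reference gene, had intervals of -0.17 to 0.04 for diabetes in untreated and -0.19 to 0.03 in B12-treated kidneys. Rplp1 and Rplp2, the acidic stalk proteins, had adjusted p between 0.677 and 0.980 in the 4 comparisons. Rps6, the protein that S6 kinase phosphorylates below mTORC1, averaged 7706 ± 452, 7857 ± 139, 7830 ± 347 and 7382 ± 199 in that order of groups. Its D_B12 libraries, at 7104 to 7553, were all below those of ND_B12, at 7719 to 8038. That difference was small and did not pass (log2 fold change -0.09, adjusted p = 0.369 by edgeR). Rpl11 averaged 6275 ± 347, 6521 ± 245, 6165 ± 404 and 6113 ± 264. Rpsa, also the precursor of a laminin receptor, averaged 15599 ± 834 in ND_C and 17167 ± 761 in D_B12, the highest group mean. ND_C and D_B12 were not compared directly, and Rpsa passed in none of the comparisons fitted.

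Paralogs with a narrow tissue range were low or absent. Rpl3l, which in heart and skeletal muscle takes the place of Rpl3, had 139, 120, 153 and 86.4 normalized counts in ND_C and 82.2, 40.4, 77.3 and 80.8 in D_C. With B12 it had 110, 88.3, 85.8 and 74.5 in non-diabetic and 73.2, 111, 80 and 135 in diabetic mice. D_C was below ND_C in every library (log2 fold change -0.82, SE 0.25, adjusted p = 0.0934), with ND_C replicate 4 close above it. D_C replicate 2 was lowest and stood apart from the other 3. Rpl3 averaged 10287 ± 552 in ND_C and 10064 ± 765 in D_C, with a log2 fold change of -0.03. Markers of skeletal muscle were below the filter, as given above. Rpl3l overlaps a predicted gene in the annotation, and its DESeq2 adjusted p was 0.0291.

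Rps27l, a p53-induced paralog, was counted more than Rps27, the gene it resembles. It averaged 6553 ± 438 in ND_C and 7122 ± 316 in D_B12, groups that were not compared directly. Rps27 averaged 5876 ± 500 and 5373 ± 198 there, and 6069 ± 340 in ND_B12. These are counts and not levels per length. Neither gene passed in any comparison fitted, at log2 fold changes of 0.12 and -0.18 for diabetes in B12-treated kidneys (D_B12 against ND_B12). Rps4l averaged 593 ± 86.3, 609 ± 83.7, 602 ± 78.7 and 499 ± 98.4 in the 4 groups, far below Rps4x at 10692 ± 722 in ND_C. Rpl39 averaged 4663 ± 268 in ND_C and 4464 ± 270 in D_B12, and its testis paralog had no counts. Rps4l is a gene of 1 listed transcript, and reads may be shared between such near-identical genes.

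Genes with related roles were set beside the members. Of the 6 ribosomal proteins and paralogs with other names, 1 was called, Rpl22l1, the paralog of Rpl22, for diabetes in B12-treated kidneys. Of all genes 0.823% were called there. Rpl22l1 fell from 1139 ± 121 normalized counts in ND_B12 to 754 ± 57.4 in D_B12 (log2 fold change -0.60, SE 0.114, adjusted p = 0.037 by edgeR). The call was lost with label date in the fit, upper-quartile scaling, the replicate block (adjusted p = 0.0568), no filter, and 10 of the 16 fits that left out 1 library, with adjusted p of up to 0.152. Its log2 fold change was -0.82 with label date in the fit and -0.66 to -0.54 under the other alternatives. Rpl22 and Rpl22l1 were both lower there, although Rpl22 did not pass. In the other comparisons 0 of the 6 passed. Rack1, a signalling scaffold of the small subunit, and Fau had log2 fold changes of -0.15 and 0.00 for diabetes in B12-treated kidneys.

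The translation factors and other TOP mRNAs were mostly lower in the diabetes comparisons, and whether they differed from the ribosomal proteins was not tested. For diabetes in B12-treated kidneys, 15 of 15 had a log2 fold change below 0, beside 49.5% of all genes, with a median of -0.16. An unadjusted p below 0.05 was reached by 11, all lower, beside 17.0% of all genes at that p and 9.20% that were also lower. The list was written with results of these data known. Only Eif4b, a cofactor of the cap-binding helicase, passed, where 0.823% of all genes did. Eif4b fell from 25634 ± 794 normalized counts in ND_B12 to 19522 ± 933 in D_B12 (log2 fold change -0.40, SE 0.0676, adjusted p = 0.0282 by edgeR). Npm1, a nucleolar chaperone, had -0.35 (adjusted p = 0.056), Eef2, the translocation factor, -0.22 (0.0716) and Eif3f -0.22 (0.0851). In untreated kidneys 14 of 15 were below 0, beside 50.7% of all genes, with a median of -0.08. There 0 passed by edgeR, beside 1.66% of all genes, Tpt1 being nearest with -0.26 (adjusted p = 0.0517). For B12 in diabetic kidneys 12 were below 0, beside 50.1% of all genes, with a median of -0.05. For B12 in non-diabetic kidneys 3 were below 0, beside 49.5% of all genes, with a median of 0.01. In either, 0 of these and 0% of all genes passed. The Eif4b call was lost with the label date as a covariate (adjusted p = 0.412), with upper-quartile scaling (0.0583), with the replicate block (0.0526), and without any 1 of the D_B12 libraries, ND_B12 replicate 2 or ND_B12 replicate 3 (up to 0.119). Its log2 fold change was -0.27 with label date in the fit and -0.36 to -0.42 under the other alternatives.

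The machinery that builds ribosomes did not pass in any comparison. Of 29 assembly factors 0 were called, with medians of 0.11 for B12 in diabetic kidneys, 0.05 for B12 in non-diabetic kidneys, -0.03 for diabetes in untreated kidneys and 0.03 in B12-treated kidneys. For B12 in diabetic kidneys edgeR called 0% of all genes. There 7 of the 29 had an unadjusted p below 0.05, all higher, beside 13.6% of all genes. Of all 25408 genes 1636 were higher at that p. In the other comparisons 1, 3 and 6 of the 29 reached it, beside 7.62%, 18.6% and 17.0% of all genes. Nob1, which cuts the last small-subunit rRNA precursor, had 0.32 for B12 in diabetic kidneys (adjusted p = 0.138 by edgeR). Of 14 genes of RNA polymerase I, which transcribes rRNA, 0 were called, the nearest being Polr1h with -0.31 for diabetes in untreated kidneys (adjusted p = 0.0606). Of 16 mTORC1 and translation control genes 0 were called, with medians between -0.01 and 0.08. Larp1, which binds TOP mRNAs, had 0.17 for B12 in diabetic kidneys (adjusted p = 0.307).

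The 79 tested genes with symbols of mitochondrial ribosomal proteins gave 1 call, Mrps36 for diabetes in untreated kidneys (log2 fold change -0.34, adjusted p = 0.0468 by edgeR). There 1.66% of all genes were called. The set was chosen by symbol alone, so this call is not a result about the mitochondrial ribosome. The median of the set was -0.06 in that comparison and -0.02 for diabetes in B12-treated kidneys. It was 0.05 for B12 in diabetic and -0.01 for B12 in non-diabetic kidneys. The Mrps36 call was lost with label date in the fit, the replicate block (adjusted p = 0.0587), the compared groups alone and no filter, and in 11 of the 16 fits that left out 1 library (adjusted p up to 0.466 over these). Its log2 fold change was -0.23 with label date in the fit and -0.42 to -0.28 under the other alternatives.

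Near-identical pseudogenes make single members uncertain. The 192 tested pseudogenes named after ribosomal proteins held counts equal to 16.6% of those of the members, and their share of a library was 0.118% to 0.143%. Their medians followed the members', at -0.08 for diabetes in B12-treated and -0.02 in untreated kidneys. Of these 192 pseudogenes 1 was called, Rps7-ps2 for diabetes in untreated kidneys (log2 fold change -0.98, adjusted p = 0.0474 by edgeR), where 1.66% of all genes were called. The Rps7-ps2 call was lost with the replicate block (adjusted p = 0.067), with label date in the fit, with the compared groups alone, without the filter and in 13 of the 16 fits that left out 1 library. The member Rps7 has one of the larger SDs between mice, 0.169. How reads were divided between a gene and its copies cannot be read from the counts. In the annotation 55 members also overlap another gene, small nucleolar RNAs aside, 50 of them on the opposite strand, and the counting is not stated to use strand.

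At the level of transcripts no change passed. The table lists 484 transcripts of the members, and 417 of them had at least 100 counts. With 66503 transcripts tested, edgeR called 0% in each comparison, members included. At an unadjusted p below 0.05 there were 21 member transcripts for B12 in diabetic kidneys (5.04%, beside 9.27% of all transcripts), 19 for B12 in non-diabetic kidneys (4.56%, beside 6.93%), 23 for diabetes in untreated kidneys (5.52%, beside 9.77%), 36 for diabetes in B12-treated kidneys (8.63%, beside 12.1%) and 33 for the interaction (7.91%, beside 12.1%). Rps9-201, which took most Rps9 counts, 83.6% to 93.4% per library, had a log2 fold change of -0.31 for diabetes in B12-treated kidneys (adjusted p = 0.16). Rpl5-201, at 94.6% to 97.6% of its gene, had -0.23 (adjusted p = 0.165).

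Isoform classes differed little between groups in sum and were unstable within genes. Transcripts classed as protein coding took 84.6% ± 0.897 of member counts in ND_C and 84.0% ± 0.883 in ND_B12, beside 83.6% ± 0.454 in D_C and 84.4% ± 0.401 in D_B12 (SD over 4 mice). The coding share was 82.914% to 83.962% in D_C, below every D_B12 library at 84.025% to 84.958%, which was not tested. Retained-intron transcripts took 10.6% to 10.9% in the 4 group means. For 11 members more than 50% of counts went to transcripts not classed as coding. They were the pseudogenes Rpl6l and Rpl32l and 9 others, among them Rpl12 (83.2%), Rpl10a (68.7%), Rps18 (68.6%) and Rps16 (68.5%), and for 40 members under 5% did. Such shares come from an assembly that divides short reads among overlapping models.

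The share assigned to single transcripts differed widely between mice of one group. Chosen after their values were seen, Rps14-208 took 28.5% to 68.0% of the gene's counts in 6 libraries, ND_B12 replicates 1, 3 and 4 and D_C replicates 2, 3 and 4, and under 10% in the other 10. Rps10-208 took 48.6% to 57.3% in 7 libraries and under 1% in 9. Rps12-201 took 59.0% in D_C replicate 4 and at most 1.98% elsewhere. Rpl3-201 ranged from 14.7% to 70.8% with wide overlap of all groups. At the gene level Rps10, Rps12, Rps14 and Rpl3 had no call in any comparison.

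**Figure D5:**
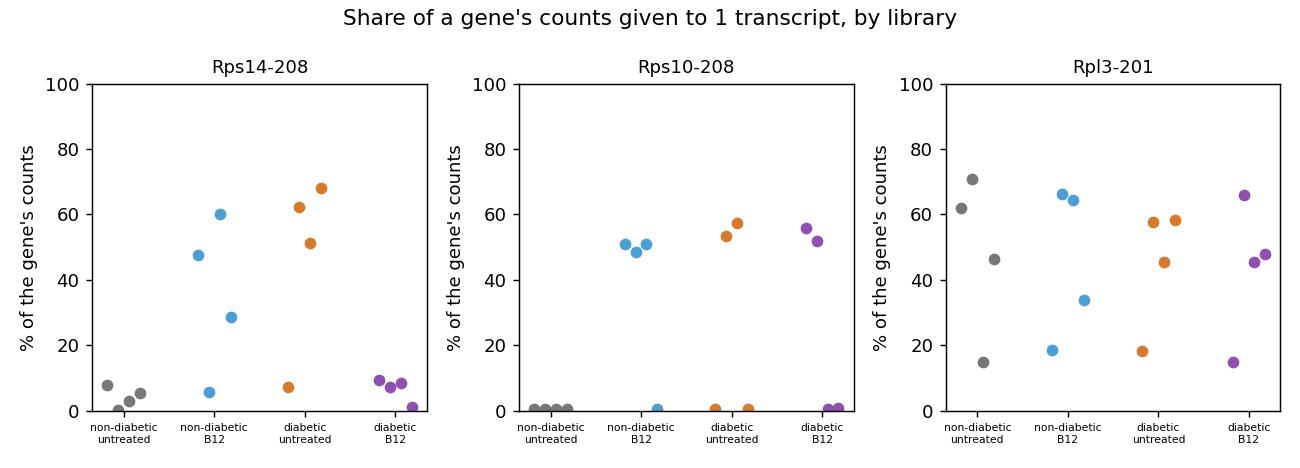
Percent of a gene's counts assigned to 1 transcript in each library, for Rps14-208, Rps10-208 and Rpl3-201. Points within a group fall at separate levels, such as 48.6% to 57.3% or below 1% for Rps10-208.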

How the data were processed

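Kidney RNA of 16 mice was measured by RNA-seq, 1 library per mouse. After STAR alignment of paired-end reads to GRCm39 (GENCODE vM35), the authors deposited estimated counts per gene and per transcript, made with StringTie and prepDE. These expected counts were already whole numbers. The submitters' notes also name bcl2fastq 2.20.0, DESeq2 and limma. Whether counting used strand is not given in the sources used here. All 16 count columns were matched to libraries by name, and 0 were left over.

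Genes with at least 100 summed counts (25408) and transcripts with at least 100 (66503) were tested with edgeR 4.0.16 (glmQLFit and glmQLFTest, TMM) in R 4.3.3, in a model with a mean for each group in the labels. It left 12 residual degrees of freedom. P-values were adjusted over all features (Benjamini-Hochberg, threshold 0.05). Tests were two-sided. The spread is a common biological coefficient of variation of 0.201. Intervals are 95%. Normalized counts used median-of-ratios size factors, and log2 CPM a prior count of 2. Totals were 65271308 to 91771136 per library. The scripts were tested on simulated counts.

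Members and lists were chosen with earlier results of these data known. Members named are the 5 highest and 5 lowest per kilobase, those with the smallest unadjusted p below 0.05 (up to 8 per direction and comparison), the paralogs Rpl3l, Rpl10l, Rpl39l, Rps27l and Rps4l with their main genes, and Rplp0, Rplp1, Rplp2, Rpsa, Rpl5, Rpl11, Rps6 and Rpl13a, and others were named after their values were seen. Up to 4 genes per list were named by smallest p. Single values of some genes are not reported here. Positions and classes come from GENCODE vM39, so levels per kilobase were limited to transcripts of unchanged version.

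Alternatives were upper-quartile scaling, median-of-ratios scaling, DESeq2 1.42.0, no filter, filterByExpr, label date as covariate, replicate number as block, compared groups alone and each library left out. Same-numbered libraries of different groups had correlations of their deviations from -0.183 to 0.168, with 3 of 24 over 0.1, so the numbers do not pair the mice. Tables and plots used Python with pandas, scipy and matplotlib.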

Additional observations from a re-analysis of the deposited data

Results flagged for a closer look

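In 10 of 136 groups of 4 libraries, the highest or lowest library stood apart from the others by Dixon's criterion, and chance alone gives about 1 in 20. ND_C replicate 3 was high for Rpl13a, at 17778 normalized counts against 16320 to 16434, for Rpl7a at 13678 against 12524 to 12633, and for Rps4x at 11772 against 10261 to 10374. ND_B12 replicate 1 was low for Rpl39 at 4279 against 5030 to 5130, for Rpl41 at 10834 against 13914 to 14481, and for Rps3 at 16317 against 17589 to 17721. Rpl41 was also low in ND_C replicate 1, at 12107 against 13568 to 13868. Rplp0 was high in ND_B12 replicate 4, at 26151 against 24378 to 24571. Rpl3l was low in D_C replicate 2, at 40.4 against 77.3 to 82.2. The share of mitochondrially encoded genes was 8.35% in D_C replicate 3 and 11.4% to 11.8% in the other D_C libraries.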

How the results depend on the processing

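The labels and published means disagree for 11 libraries and date follows group, so directions and sizes depend on the labels. Members with an unadjusted p below 0.05 numbered 4 for B12 in diabetic kidneys, 1 for B12 in non-diabetic, 5 for diabetes in untreated, 13 for diabetes in B12-treated kidneys and 3 for the interaction. Of all 25408 genes 3468, 1937, 4725, 4317 and 4093 reached it. With label date as a covariate the members' counts became 7, 2, 1, 1 and 1, beside 3915, 1461, 2660, 3781 and 4827 genes. The members' medians became 0.073 and 0.0024 for B12 in diabetic and diabetes in B12-treated kidneys, and 0 members were called in the latter. With the compared groups alone the counts were 2 for B12 in diabetic, 2 for diabetes in untreated and 22 for diabetes in B12-treated kidneys. Beside them stood 2910, 4176 and 4666 genes, and 0 members were called. With upper-quartile scaling the members' counts were 0 for B12 in non-diabetic, 9 for diabetes in untreated kidneys and 1 for the interaction. Beside them stood 1782, 4884 and 4009 genes, and 0 members were called for diabetes in B12-treated kidneys. Median-of-ratios scaling gave 0 for B12 in non-diabetic kidneys, beside 1910 genes. The 5 libraries of matching label, a choice made after seeing the data, gave 4, beside 1922 genes. Without the filter 0 members were called for diabetes in B12-treated kidneys. DESeq2 called 1 member for diabetes in untreated and 5 for diabetes in B12-treated kidneys.

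Leaving out 1 library at a time also changed the number of all genes with an unadjusted p below 0.05. For the members it gave counts of 2 to 17, 0 to 2, 2 to 19, 8 to 19 and 2 to 9 in the order above. Called members numbered 0 to 1 for diabetes in untreated kidneys and 0 to 2 in B12-treated kidneys. Transcripts left out in this way, an addition made after seeing the data, kept 0 called. The replicate numbers do not pair the mice. With the replicate block 0 members were called for diabetes in B12-treated kidneys.

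Over all genes edgeR called 0, 0, 423, 209 and 0 in the same order, and DESeq2 670, 6, 1637, 1189 and 943. Leaving out 1 library moved the edgeR counts to 0 to 67, 0 to 2, 0 to 1551, 0 to 438 and 0 to 265. For diabetes in untreated kidneys the count was 0 without ND_C replicate 2, 2 without ND_C replicate 3, 71 without ND_C replicate 1, 17, 61 and 46 without D_C replicates 4, 3 and 2, 1551 without D_C replicate 1, 173 without D_B12 replicate 2, and 142 and 680 without ND_B12 replicates 2 and 4. For diabetes in B12-treated kidneys it moved by over 1.5 times on leaving out any library other than ND_B12 replicate 4 and ND_C replicate 4. The 67 came without D_C replicate 1. For the 2 diabetes comparisons, untreated first, the counts were 182 and 191 with the compared groups alone, 2 and 29 with label date, 63 and 35 without the filter, 269 and 25 with the replicate block, and 474 and 18 with upper-quartile scaling. Label date also gave 204 calls for B12 in diabetic kidneys and 753 for the interaction, the block 147 for the interaction, and the compared groups alone 1 for B12 in diabetic kidneys. The cause was not tested.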
